A study of Mus musculus with 6 samples.

Results

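DPPA4 peaks marked 7112 intergenic regions that were found in the peak list of 2-cell-like cells (2CLCs) and not in that of mouse embryonic stem cells (mESCs). They came from 97623 merged DPPA4 regions on chromosomes 1 to 19, of which 17878 (18.3%) were GFP-positive-only wherever they lay, and made up 23.1% (Wilson 95% interval 22.7 to 23.6) of the 30747 intergenic regions. Such intervals cover counting error alone. To obtain them, overlapping peaks (by 1 bp or more) were merged across the deposited lists, and regions built from peaks of the GFP-positive list alone were kept where their midpoint lay outside every GENCODE vM21 gene body and outside the stretch from 2.5 kb upstream to 0.5 kb downstream of every transcript start. They are called members in what follows. All 6 libraries came from BL6/129 hybrid mESCs of the line EHMT2-dTAG-mcherry-mervl-gfp, in which endogenous EHMT2 carries a degradation tag and a GFP reporter is driven by a MERVL promoter, and all had 72 h of dTAG, so an untreated group was not analysed here. Live cells were sorted into GFP-negative cells, which stand for mESCs, and GFP-positive cells, which stand for 2CLCs, and DPPA4 was profiled by CUT&RUN in 2 libraries of each, beside 1 IgG library of GFP-negative cells and 1 of unsorted cells. GFP-positive cells had no IgG library, so background signal of that fraction cannot be told apart from DPPA4 signal. The labels call both sorted fractions ESC, so the name 2CLC rests on the MERVL reporter. Both libraries of a group were pooled in its list, which leaves no replicate spread for the values here, and differences among classes of regions were not tested. A region outside the GFP-negative list lacked a peak there at the threshold of the authors, which does not show that DPPA4 was absent.

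DPPA4 is a DNA-binding protein of pluripotent cells and early embryos that works together with its neighbour gene product DPPA2. Cells of the 2-cell stage embryo, and the 2CLCs that arise in mESC cultures, transcribe endogenous retroviruses of the MERVL family together with genes such as the *Zscan4* cluster. An endogenous retrovirus consists of an internal part between a pair of long terminal repeats (LTRs), the left one of which holds the promoter. Recombination between the LTRs removes the internal part and leaves a solo LTR. Reverse transcription of such an element starts from a transfer RNA bound just inside the left LTR, and MERVL is named for the leucine tRNA that fits its site. Because the sort gate itself used a MERVL promoter, reads from the reporter cannot be told apart from reads of the genomic LTR copies.

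The sequences below carry the recurrent part of the members. Members were grouped into families by likeness of the 200 bp around their summits, and a family is shown by the seed window that matched most other members, read from RefSeq GRCm38.p6 on the plus strand. Those shown of the 5 largest families, F1 to F5, were at chr10:36136194-36136393 (F2), chr14:75426485-75426684 (F3), chr9:109130378-109130577 (F4) and chr7:14170679-14170878 (F5). That of F9, at chr1:9380514-9380713, is added because it is the LTR of the element described further on, and the summit window of the strongest member (chr1:102628147-102628346) because its sequence is in no family. Capitals mark CG dinucleotides.
F2 seed: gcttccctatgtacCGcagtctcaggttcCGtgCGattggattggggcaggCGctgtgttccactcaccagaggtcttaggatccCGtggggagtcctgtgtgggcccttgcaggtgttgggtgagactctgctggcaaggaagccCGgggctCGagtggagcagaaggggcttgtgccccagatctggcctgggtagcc
F3 seed: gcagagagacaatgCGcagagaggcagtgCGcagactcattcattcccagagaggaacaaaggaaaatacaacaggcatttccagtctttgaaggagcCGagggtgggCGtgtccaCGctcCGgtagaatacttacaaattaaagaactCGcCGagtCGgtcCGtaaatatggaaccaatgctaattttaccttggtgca
F4 seed: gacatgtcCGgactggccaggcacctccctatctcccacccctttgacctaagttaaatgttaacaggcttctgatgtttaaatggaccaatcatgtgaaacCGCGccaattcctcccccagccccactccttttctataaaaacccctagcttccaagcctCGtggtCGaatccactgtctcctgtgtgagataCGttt
F5 seed: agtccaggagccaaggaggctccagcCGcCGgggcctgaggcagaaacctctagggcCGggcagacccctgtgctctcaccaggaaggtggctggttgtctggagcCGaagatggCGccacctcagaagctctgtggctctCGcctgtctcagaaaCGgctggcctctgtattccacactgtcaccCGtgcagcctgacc
F9 seed: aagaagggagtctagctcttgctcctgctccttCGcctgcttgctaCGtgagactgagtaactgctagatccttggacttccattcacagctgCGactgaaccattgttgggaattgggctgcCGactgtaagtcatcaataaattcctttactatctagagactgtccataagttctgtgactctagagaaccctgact
Strongest member: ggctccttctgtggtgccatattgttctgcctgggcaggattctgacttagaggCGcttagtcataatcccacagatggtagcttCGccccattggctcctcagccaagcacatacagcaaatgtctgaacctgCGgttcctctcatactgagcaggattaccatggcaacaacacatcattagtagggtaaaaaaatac

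Most members were weak and narrow peaks, with a minority of very wide ones. Each member consisted of a single peak, and together they were 13.4% of the 53110 GFP-positive peaks on these chromosomes. Median width was 584 bp (quartiles 365 and 929 bp, range 144 to 14066 bp). The fold enrichment is the deposited ratio of summit signal over estimated background. Its median was 3.68 (quartiles 3.30 and 4.28), and the highest was 13.2. The −log10 q of a summit is its adjusted significance in the deposited list. Its median was 2.30 (quartiles 1.72 and 3.46). It was below 2 in 2953 members (41.5%) and at least 5 in 994 (13.98%), so most members lay close to the deposited minimum of 1.3. In the same GFP-positive list, intergenic regions common to both lists had a median fold enrichment of 4.92 and a median −log10 q of 5.20. Presence in one list and not the other is what chose the members, and the strength of a peak bears on whether it is listed, so these values describe the members and test nothing.

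Members and common regions met closely at the edge of the rule. The nearest GFP-negative peak lay less than 100 bp away from 26 members and less than 1 kb away from 683 (9.60%), whereas 3767 (53.0%) had none within 10 kb, with a median gap of 11475 bp. On the other side of the edge, 41 common intergenic regions shared less than 100 bp between the lists, and the smallest overlap was 10 bp. Median fold enrichment in the GFP-positive list was 3.30 for the former 26 members and 3.45 for these 41 common regions, with median −log10 q values of 1.75 and 1.93.

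The GFP-positive-only share differed with position in the gene. It was 11.5% (11.1 to 11.9) of promoter regions, 16.5% (15.6 to 17.4) of exonic, 19.8% (19.4 to 20.3) of intronic and 23.1% of intergenic regions. Within intergenic sequence, members lay a median of 13029 bp from the nearest transcript start (quartiles 6299 and 29902 bp), close to the 13252 bp of GFP-negative-only regions and nearer than the 16316 bp of common regions. Of the members, 18.4% lay within 5 kb of a start and 14.8% more than 50 kb away, and the most remote was 613151 bp away.

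The strongest member had a −log10 q of 61.3 and a fold enrichment of 12.4, and its 234 bp (chr1:102628090-102628323) held no soft-masked base. RefSeq writes repeats and low-complexity sequence in lower case, called soft-masked here. Its nearest gene was the processed pseudogene *Gm20281*, 169285 bp away, and its 31-mers, words of 31 bases, occurred a median of 1 time in the genome. Whether it is a fragment of a ribosomal RNA gene, whose reads would come from the many ribosomal copies, was not tested, since no ribosomal DNA unit was used here. The next 9 members by −log10 q ran from 26.6 down to 19.1, and all held between 72.7% and 100% soft-masked bases. The second, at chr16:19927966-19929251 near *Klhl6*, had the highest fold enrichment of all members, 13.2, and belonged to family F5. The third (chr2:74397022-74399576, fold enrichment 7.28) and the eighth (chr1:149451347-149456788, fold enrichment 10.5) lay on the LTR element described further on. The fifth, at chr7:11021707-11035772, was the widest member at 14066 bp and covered most of the reference copy of that element, although its summit lay outside it. The sixth (chr6:42173885-42175171, fold enrichment 12.4, *Tas2r139* nearest) belonged to F2. The fourth (chr11:41089343-41089805, fold enrichment 9.81) had a summit sequence with a median copy number of 57.5. The seventh (chr4:74449803-74453451, fold enrichment 12.0) and ninth (chr2:181917057-181917516, fold enrichment 7.92) had 1 copy, and the tenth (chr5:15669982-15671593, fold enrichment 5.06), next to *Speer4cos*, had 5.

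Members were rich in repeats. Soft-masked bases made up 65.7% of their sequence, against 51.9% in common, 21.9% in GFP-negative-only and 47.6% in GFP-positive-only intronic regions, and 33.5% of the assembled chromosomes. Without the members on the leucine-primed LTR element described further on, the share in members was 51.9%, as in common regions. The copy number of a summit was taken as the median genome count of the 31-mers in its 200-bp window. It was 10 or more for 2636 members (37.1%, 35.9 to 38.2), for 42.2% (41.2 to 43.3) of common, 4.63% (4.30 to 4.98) of GFP-negative-only and 19% (18.1 to 20) of GFP-positive-only intronic regions. Off that element, 28.5% of members had such a copy number. Over all members, repetitive summits were thus about as frequent as in common regions, but of another kind. Copy numbers of 1000 or more were found at 23.6% of common summits and at 1.93% of members, whose largest multi-copy group had between 100 and 1000 copies (1658 members, 23.3%). The authors placed each multimapping read at a single best or random position, so a peak on such a sequence does not show which copy was occupied.

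Up to 1000 copies, strength rose with copy number among the members. A −log10 q of at least 5 was reached by 8.25% of the 3505 members with a copy number under 2, by 13.3% of those from 2 to 10, by 15.9% of those from 10 to 100 and by 25.5% of those from 100 to 1000, but by 14.6% of the 137 members with more. Median fold enrichment was 3.52 under 2 copies and 3.91 from 100 to 1000 copies. Members on the leucine-primed LTR element described further on were not taken out here. Of these 870 members, 37.1% had a −log10 q of at least 5, and the middle of that element had a median copy number of 639. Whether the rise holds without them was not tested. The members with a copy number under 2 still held 36.2% soft-masked bases, and lay at a median of 11292 bp from a transcript start, against 18637 bp for those with 100 to 1000 copies.

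**Figure D1:**
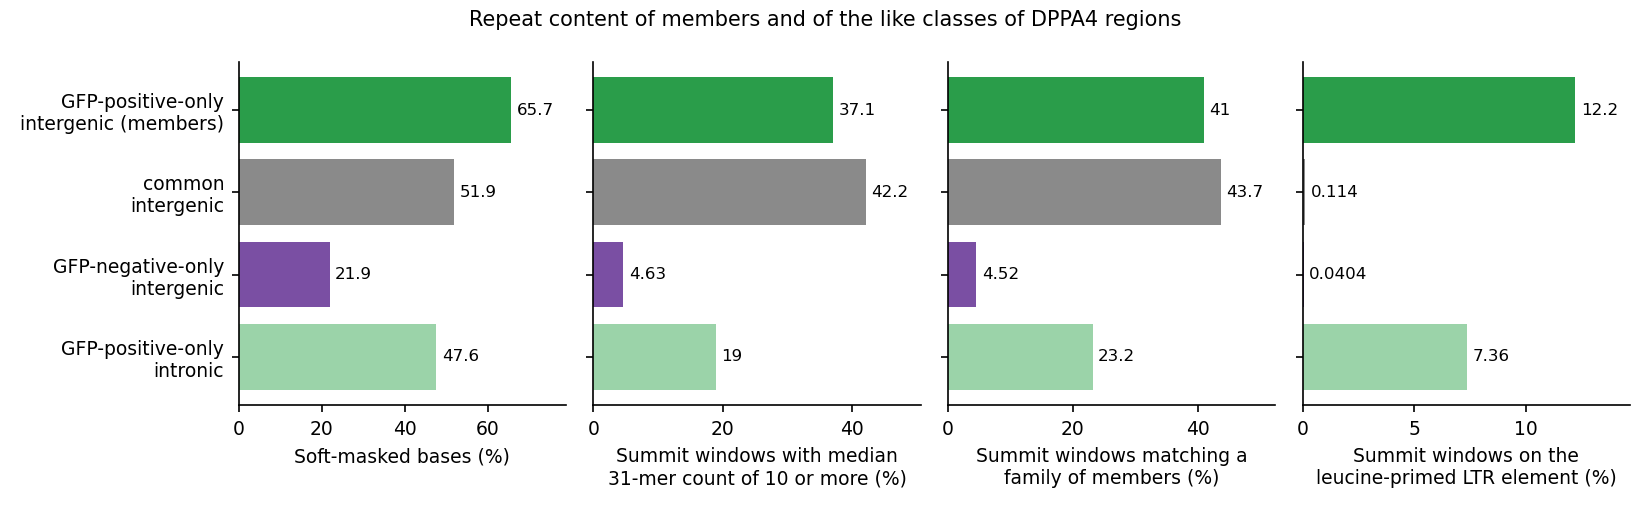
Repeat content of members and of 3 like classes of DPPA4 regions. Bars give, from left to right, the percent of bases soft-masked, the percent of summit windows with a median 31-mer count of 10 or more, the percent that match a family of members and the percent on the leucine-primed LTR element. Members and common regions have near bars for copies and families (37.1% and 42.2%, 41.0% and 43.7%) but far ones for the element (12.2% and 0.114%).

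Many members fell into recurrent families. With summit windows joined at 80% identity over 100 bp, 65 families of at least 10 members held 2916 members (41.0%, 39.9 to 42.1), while 3217 (45.2%) resembled no other member. Windows matching any of these families made up 43.7% of common, 4.52% of GFP-negative-only and 23.2% of GFP-positive-only intronic regions. For each family, all copies in the genome were located and overlapped with both peak lists, copies in genes included. The members themselves are among these copies and have a GFP-positive and no GFP-negative peak by the rule, so part of any gap between the lists is fixed by how the families were found. The shares are descriptions, and families differed in them.

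The largest, F1, had 282 members and 170774 genomic copies, of which 4.23% lay under a GFP-positive and 2.64% under a GFP-negative peak. Few copies of F1 were listed in either cell state. F2 (244 members) and F5 (159) had copies that were listed often in both cell states. Of the 13237 copies of F2, 67.3% lay under a GFP-positive and 59.2% under a GFP-negative peak, and of the 4374 copies of F5 these shares were 51.5% and 37.7%. F8 (106 members, 9197 copies) was still nearer to even at 84.9% and 83.4%. Windows like F2 and F8 made up 15.7% and 19.3% of common intergenic regions, above the shares of 3.43% and 1.49% in members.

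F2, F5 and F8 recurred in tandem. Neighbouring copies lay most often 205 bp apart in F2 and F5 and 215 bp in F8, and these 3 families held 509 members. Monomers in tandem form the promoters of young LINE-1 retrotransposons in the mouse, which encode long proteins downstream. Of the 509 arrays of F8 checked, 318 (62.5%) were followed within 8000 bp by an open reading frame of at least 3000 bases, against 2 (0.393%) that were preceded by one. For F2 and F5 such a frame followed 0.376% and 0.568% of arrays and preceded 0.188% and 0.568%. Frames, and the stretch described next, were sought on the strand of the family's seed alone. A seed that lies against the strand of its element would give low shares on both sides. The values therefore do not show that F2 and F5 differ from F8 in what lies beside them. A stretch like the sequence that follows the array with the longest such frame in these families, matched over at least 500 bases, lay downstream of 100% of F8, 19% of F2 and 21.9% of F5 arrays and upstream of 23.4%, 9.77% and 7.95%. No repeat annotation was used, so these families carry no repeat names here.

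F3 and F4 had few copies under GFP-negative peaks. F3 had 208 members, and 22.5% of its 1713 copies lay under a GFP-positive and 0.992% under a GFP-negative peak. F4 had 168 members, and 39.9% of its 1071 copies lay under a GFP-positive and 5.23% under a GFP-negative peak. Copies under a GFP-positive peak alone numbered 372 for F3 and 373 for F4, members included. Only 4 common intergenic summits were like F3 and 9 like F4. Among the 15 largest, the families with the widest gap between the lists were F6, F11, F12, F13 and F14, of which between 58.2% and 77.7% of copies lay under a GFP-positive and between 0% and 0.723% under a GFP-negative peak. F9, shown above, had 28.2% and 0.533% of 3752 copies listed.

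**Figure D2:**
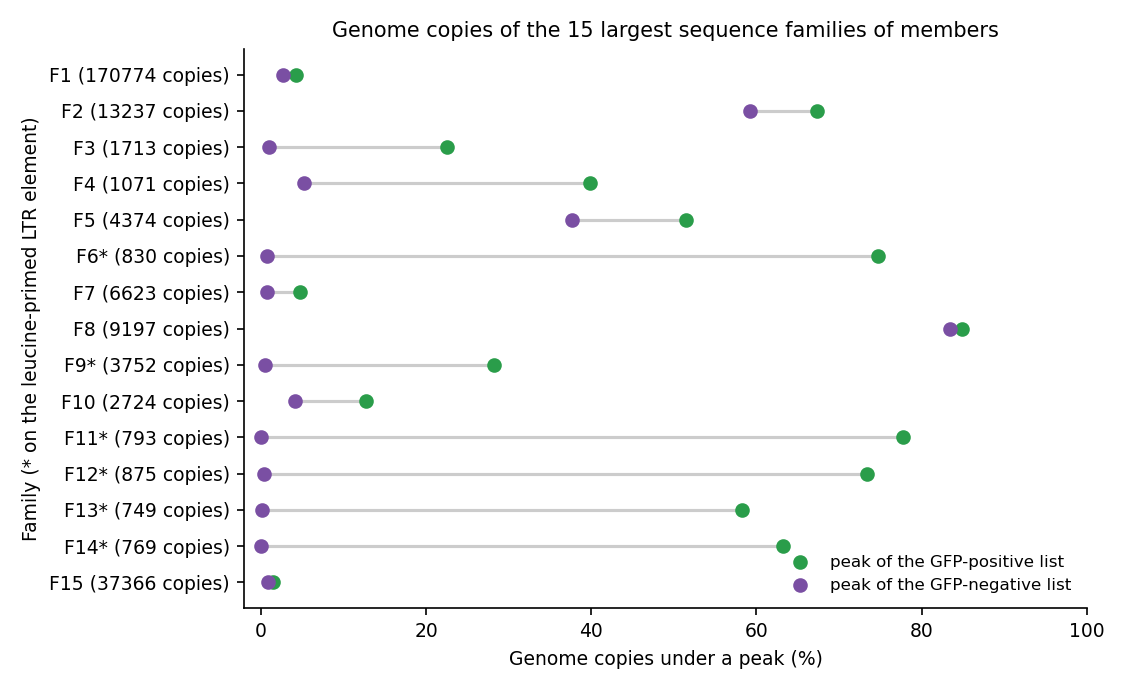
Genomic copies of the 15 largest families under a peak of either list, in percent of all copies on chromosomes 1 to 19. Each row is a family with its number of copies, green points are the GFP-positive and purple points the GFP-negative list, and asterisks mark families on the leucine-primed LTR element. Points lie together for F1, F8 and F15 and far apart for the marked families, such as F11 at 77.7% and 0%.

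These marked families turned out to be pieces of a single LTR element, an analysis chosen after the families were seen. Copies of F9 recurred on the same strand about 5950 bp apart in 511 pairs, as the LTRs at both ends of a provirus do. A reference copy was taken at chr7:11021486-11027963, which the fifth strongest member overlaps. It spanned 6478 bp, with LTRs of 499 bp that were 99.8% identical and a 5480-bp internal part. The LTRs began with TG and ended with CA, and the same 5 bases stood on both sides of the element, as integration leaves them. The reference copy was the first with such ends and flanks, going down the members by −log10 q. These features were thus required of it and test nothing. Between the left LTR and the internal part, 5 bases in, lay an 18-base stretch that matched the complement of the 3′ end of a leucine tRNA at 15 bases, with the CCA end that cells add included. The best other tRNA among 403 annotated tRNAs, one for arginine, matched at 13. The left end (chr7:11021466-11021545), the primer site (chr7:11021940-11022019) and the right end (chr7:11027904-11027983) are given as landmarks of this copy. Capitals mark the duplicated target site at both ends and the primer site in between. In the tRNA line, capitals mark the bases equal to the primer site.
Left end: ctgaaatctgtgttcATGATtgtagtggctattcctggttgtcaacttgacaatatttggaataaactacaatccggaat
Primer site: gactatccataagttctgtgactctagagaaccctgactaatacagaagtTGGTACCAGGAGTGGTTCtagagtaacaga
Right end: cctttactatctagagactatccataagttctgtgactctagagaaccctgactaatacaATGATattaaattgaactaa
Complement of the tRNA end: TGGTACCAGGAGTGGggt

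A leucine primer site is what MERVL is named for, but the name of this element was not read from a repeat annotation and it is called the leucine-primed LTR element. The summits of 870 members (12.2%, 11.5 to 13.0) lay on it, 763 on the internal part and 107 on an LTR. In common intergenic regions this held for 10 of 8785 summits (0.114%, 0.0618 to 0.209) and in GFP-negative-only regions for 6 of 14850 (0.0404%, 0.0185 to 0.0881). In GFP-positive-only intronic regions, which share the list but not the position with the members, it held for 483 of 6565 (7.36%, 6.75 to 8.01). Of the 65 families, 20 were pieces of the element and held 796 members.

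Members on the element were wider and stronger than members as a whole, although most strong members lay off it. Their median width was 1358 bp and their median fold enrichment 4.24, and 37.1% had a −log10 q of at least 5. Summits on the internal part had a median width of 1605 bp and a fold enrichment of 4.36, those on an LTR of 553 bp and 3.74. The share on the element was 5.48% of members under 300 bp wide, 18.6% of those from 1 to 2 kb, 58.1% of those from 2 to 4 kb and 88.9% (160 of 180) of those of 4 kb and over. By strength, 323 of the 994 members with a −log10 q of at least 5 (32.5%) and 32 of the 100 strongest members lay on it.

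**Figure D3:**
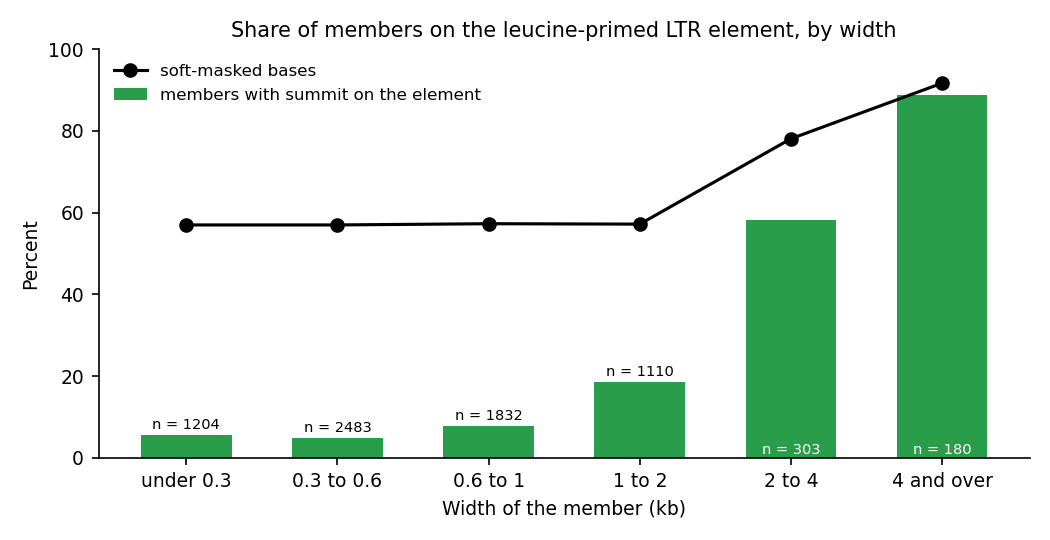
Members by width in kb. Green bars give the percent of members with the summit on the leucine-primed LTR element, with the number of members in each bin, and black points the percent of soft-masked bases. Both are level up to 1 kb, at 4.79% to 7.81% and near 57%, and reach 88.9% and 91.7% at 4 kb and over.

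Nearly every full-length copy of the element carried a DPPA4 peak in 2CLCs. In the genome, 561 copies had both LTRs and at least 90% of the internal part. A GFP-positive peak overlapped 558 of them (99.5%, 98.4 to 99.8) and a GFP-negative peak 12 (2.14%, 1.23 to 3.70). The shares were alike for the 348 intergenic copies (346 and 5) and the 194 intronic copies (193 and 6), and 336 of the intergenic copies overlapped a member. The element was found through the members, so the gap at intergenic copies is partly fixed by the rule, whereas 1 of the intronic copies overlapped a member. Random placement of reads spreads signal over like copies, so 99.5% of listed copies does not show that each was occupied.

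Solo LTRs were listed less often. Of 1047 LTRs with neither a partner nor internal sequence in reach, 317 (30.3%, 27.6 to 33.1) overlapped a GFP-positive and 12 (1.15%, 0.657 to 1.99) a GFP-negative peak, and a solo LTR is also a shorter target than a full-length copy. Among them the GFP-positive share was 13.1% of 359 with 80% to 85% identity to the reference LTR, 24.5% of 139 with 85% to 90%, 29.8% of 171 with 90% to 95% and 48.9% of 378 with 95% to 100%. The GFP-negative share was between 0.585% and 1.44% in these groups. Solo LTRs that differed least from the reference were thus listed most often in the GFP-positive list. Reads of near-identical LTRs can come from another copy, full-length ones included, or from the reporter. The gradient therefore does not show which solo LTRs were occupied, and its cause was not tested.

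Along the full-length copies, GFP-positive peaks filled the internal part. On average 84.3% of copies lay under a GFP-positive peak there, with a minimum of 61.3% and a maximum of 97% at 3724 bp from the start, against 0.0535% for the GFP-negative list. The GFP-positive share was 34.7% over the left and 45.3% over the right LTR. LTR sequence recurs in 2470 copies, solo LTRs included, and multimapping reads are spread among them. The lower LTR shares therefore do not show weaker occupancy there. Outside the element the sides were unequal. In the first 1 kb, 11.9% of copies were covered upstream and 36.4% downstream, and from 2 to 3 kb away 6.68% and 27.4%, whereas the GFP-negative list had 0.838% and 1.05%, and 2.30% and 1.57%. Flanking sequence mostly occurs once in the genome, so its reads can be placed. At 600 bp outside the ends, restricted to copies whose flank had a copy number of 1, a GFP-positive peak covered 61 of 433 upstream flanks (14.1%) and 166 of 427 downstream flanks (38.9%), and a GFP-negative peak 6 (1.39%) and 7 (1.64%). In the middle of the internal part, where the median copy number was 639, the counts were 526 (93.8%) and 0 of 561.

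**Figure D4:**
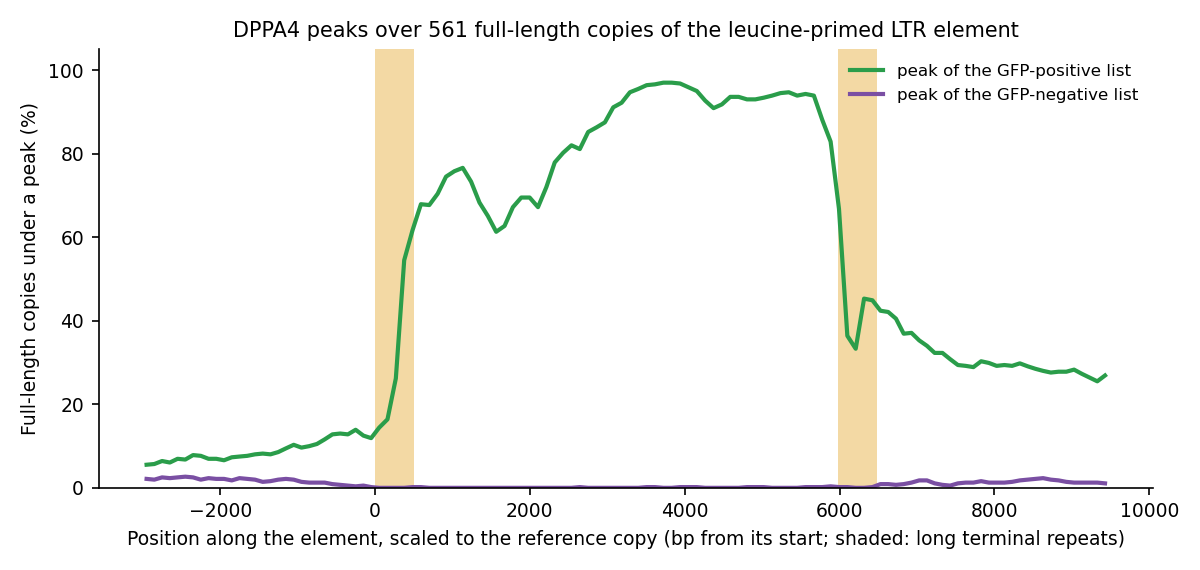
Percent of 561 full-length copies of the leucine-primed LTR element under a DPPA4 peak, by position in bp from the start of the element and 3 kb to either side, with copies oriented along the strand of the element and scaled to the reference copy. The GFP-positive list (green) averages 84.3% between the shaded LTRs and stays higher downstream than upstream, and the GFP-negative list (purple) stays near 0.

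Other LTR elements were found from the spacing of families F7, F10 and F4 in the same way. The F7 element (reference copy chr1:146120984-146128047, minus strand, 7064 bp, LTRs of 354 bp) held the summits of 435 members (6.12%), F3 among them, and of 32 common and 9 GFP-negative-only intergenic regions. Of its 776 full-length copies, 276 (35.6%) overlapped a GFP-positive and 2 (0.258%) a GFP-negative peak, and no tRNA matched its primer site at more than 9 bases. The F4 element (chr9:25855230-25863644, minus strand, 8415 bp, LTRs of 430 bp without a difference) held 252 members (3.54%), and its primer site matched a glutamine tRNA at 18 of 18 bases. Of its 43 full-length copies 41 (95.3%) overlapped a GFP-positive and 8 (18.6%) a GFP-negative peak. The F10 element held 137 members (1.93%), with 16 (28.6%) and 0 of 56 full-length copies listed. It also held the summits of 25 common and 26 GFP-negative-only intergenic regions and of 49 GFP-positive-only intronic regions. For the F4 element these counts were 13, 1 and 87, and the F7 element held 150 of the intronic ones. In all, 1694 members (23.8%, 22.8 to 24.8) had their summit on any of the 4 elements, the leucine-primed one included.

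Many members had another nearby. Another member lay within 50 kb of 64.3% of members and within 10 kb of 46.3%, with a median distance of 14241 bp to the next. For comparison, 52.8% of common and 78.6% of the more numerous GFP-negative-only intergenic regions had another region of their class within 50 kb. Among the 994 members with a −log10 q of at least 5 the share was 28.3%, and no value here separates gathering from the number of regions in a class. Of 2473 windows of 1 Mb, 1788 held a member, with a median of 3, and 144 windows with at least 10 held 30.5% of members. By chromosome, members made up between 16.8% (chromosome 15) and 31.2% (chromosome 12) of intergenic regions.

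Of the 5 windows with most members, 3 lay at clusters of genes transcribed at the 2-cell stage or their pseudogenes. On chromosome 3 from 93 to 94 Mb, 44 of 58 intergenic regions (75.9%) were members, of which 8 had *Tdpoz3* and 6 *Tdpoz4* as nearest gene, relatives of the speckle-type POZ adaptor. On chromosome 7 from 11 to 12 Mb, which holds the starts of *Zscan4c*, *Zscan4d*, *Zscan4e* and *Zscan4f*, 41 of 46 (89.1%) were members, and from 15 to 16 Mb, among *Obox4* homeobox pseudogenes, 38 of 45 (84.4%). Chromosome 5 from 94 to 95 Mb had 38 of 45 (84.4%) among predicted genes. Chromosome 12 from 54 to 55 Mb had 38 of 57 (66.7%), with *Gm6218* nearest to 9 and *Snx6*, a sorting nexin of endosomes, to 6. The leucine-primed element accounted for 0 to 5 members in each window. In the *Snx6* window, 28 of the 38 members had a copy number of 1, against 1 of 38 in the chromosome 5 window.

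A total of 4592 genes were the nearest gene of a member, 3278 of them once and 148 at least 5 times. *Gm17019* on chromosome 5 was nearest to 18 members, of 19 intergenic regions next to it. It was followed by *Gm8940* with 15 of 24, *Ercc4*, an endonuclease subunit of DNA repair, with 14 of 19, and *Rbbp6*, a ubiquitin ligase that binds the retinoblastoma protein, with 14 of 15. *Gm10354* and *Gm12137* had 11 of 12 each. Each of the other 9 genes named by the rule, *Gm12663*, *Gm23763*, *Gm28071*, *Gm29460*, *Gm33973*, *Gm37852*, *Gm4036*, *Gm42673* and *Gm48064*, was nearest to 9. Of these 15 genes, 4 are annotated as protein-coding. Unprocessed pseudogenes, which arise by gene duplication, were nearest to 5.17% of members, 2.58% of common and 1.01% of GFP-negative-only regions, and protein-coding genes to 38.9%, 38.9% and 45.1%.

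Among gene families, members were most of the intergenic regions whose nearest gene was an *Obox* gene (38 of 40, 95%), *Tdpoz* (15, 93.8%), *Usp17l* (6, 85.7%), *Pramel* or *Pramef* (11, 84.6%) or *Speer* (13, 76.5%). All 4 regions nearest to a *Zscan4* gene were members. Shares were 61.9% for the defensins, secreted antimicrobial peptides, 46.8% for the *Vmn1r* and 40.3% for the *Vmn2r* pheromone receptors, 31.6% for olfactory receptors and 33.6% for *Zfp* genes. For microRNA genes the share was 16.7%, under the 23.1% of all intergenic regions. The counts behind several of these shares are small, and no test was made.

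Members lay within 50 kb of most genes of a 2-cell-stage list, which was chosen with earlier results of these data known. Of its 34 genes 32 (94.1%) had a member in reach, against 9 of 19 pluripotency genes (47.4%) and 5209 of 20779 protein-coding genes (25.1%). Common intergenic regions were in reach of 17 of the 2-cell genes and GFP-negative-only regions of 5. With each region counted once, 137 of the 165 intergenic regions near 2-cell genes were members (83.0%, 76.6 to 88.0), 11 of 114 near pluripotency genes (9.65%, 5.47 to 16.5) and 4120 of 18361 near any protein-coding gene (22.4%, 21.8 to 23.0). Neighbouring genes of a cluster share regions, so these are not 34 separate counts. Only 13 of the 137 members lay on the leucine-primed element, and 45 had a copy number of 1.

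*Tdpoz4* had 21 members among 22 intergenic regions, the nearest 1952 bp from its start, and *Tdpoz3* 19 of 21, while *Tdpoz5*, *Tdpoz2* and *Tdpoz1* had 10, 5 and 4. *Zscan4a* and *Zscan4c*, of a cluster of zinc finger genes active in 2CLCs, had 10 members each and no region of another class. *Zscan4d* had 6, *Zscan4e* and *Zscan4f* 3 each and *Zscan4b* 2, and the nearest member of *Zscan4f* lay 4749 bp away (fold enrichment 3.4). Around *Tcstv1*, *Gm21761* and *Tcstv3* there were 7, 8 and 4 members, with fold enrichments of 5.05, 5.47 and 4.47 at the nearest one. *Arg2*, which encodes a mitochondrial arginase, had 7 members among 7 regions, the nearest 5329 bp away with a fold enrichment of 4.70. The homeobox gene *Obox6* had 6 members, *Obox3* 4, *Obox5* 3, *Obox1* and *Obox2* 2 each, and *Obox7* 1. Of the deubiquitinase genes *Usp17ld* had 5, *Usp17le* 4 and *Usp17la*, *Usp17lb* and *Usp17lc* 1 each. *Pramef25* had 5 of 7 regions, *Sp110* 4 of 4, *Pramef8* 2 of 2 and *Pramef6* 1 of 1. Common regions weighed more at *Tmem92*, with 5 members and 4 common among 9 regions, and at *Rfpl4b*, with 1 and 3 among 4. The genes without a member within 50 kb were *Zfp352* and *Duxf3*, with the nearest member 67278 bp and 390848 bp away.

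Near pluripotency genes members were few. *Zfp42*, a zinc finger gene used as a marker of naive cells, had 3 members of 4 regions, and *Klf2* and *Dppa3* had 2 each, of 23 and 12 regions. *Nanog*, *Nr5a2*, *Dppa5a* and *Sall4* had 1 each. The neighbours *Dppa2* and *Dppa4* had the same member, at chr16:48320328-48321193 with a fold enrichment of 5.25 and a −log10 q of 5.30, 16853 bp and 37028 bp from their starts. The other 10 genes had none, among them *Pou5f1* with 16 and *Tbx3* with 9 intergenic regions.

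**Figure D5:**
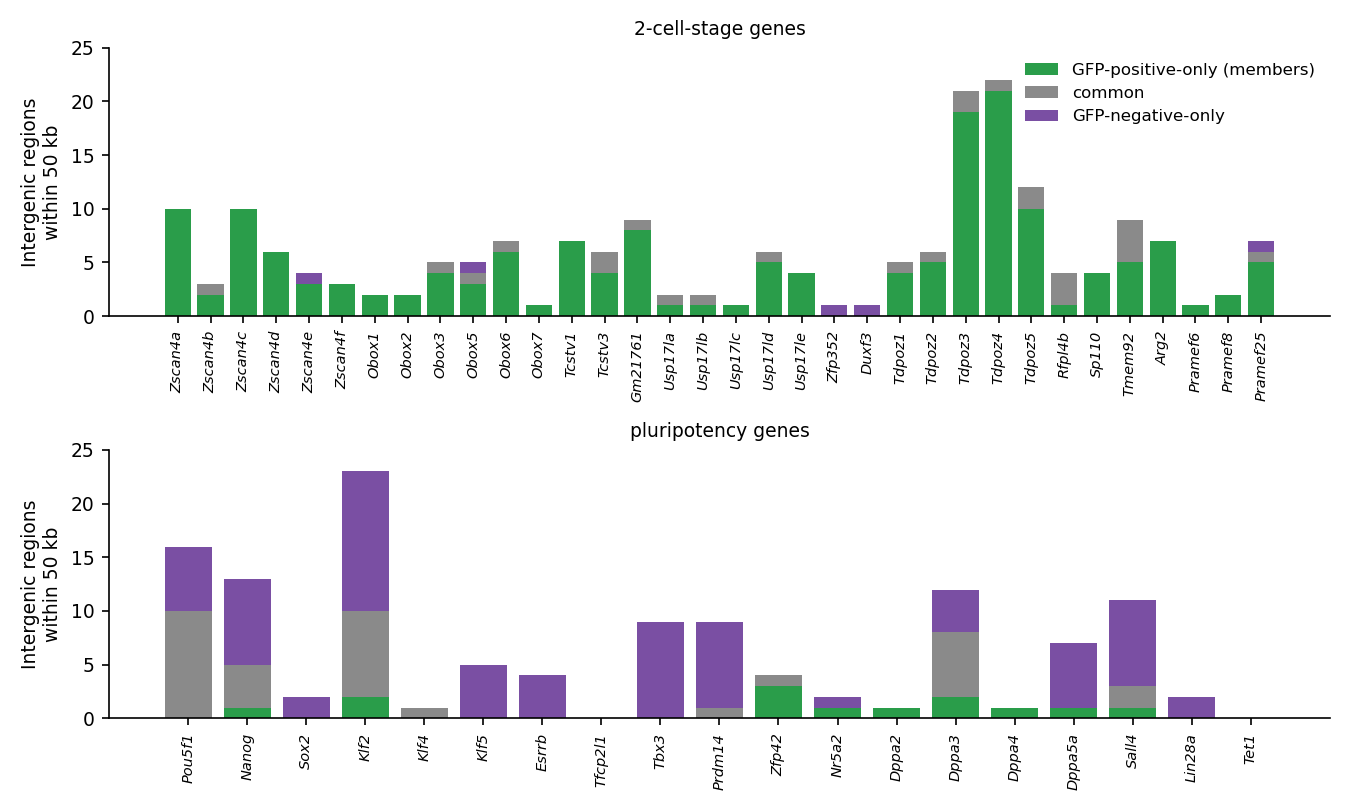
Intergenic DPPA4 regions within 50 kb of the transcript start of 34 genes of the 2-cell stage (top) and 19 pluripotency genes (bottom), as stacked counts of members (green), common (grey) and GFP-negative-only regions (purple). Members are most of the bar for most 2-cell genes, with 21 of 22 at *Tdpoz4*. Among pluripotency genes they are 1 of 13 at *Nanog* and 0 of 16 at *Pou5f1*, but 3 of 4 at *Zfp42* and the single region at *Dppa2* and *Dppa4*.

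Short words of known factors were rare in the members or differed with repeat family. Letters were searched on both strands of the 200-bp summit windows, and a match is a description of the sequence and not a bound site. The DUX word TGATTCAAT, of a factor reported to activate 2-cell-stage genes, was in 28 members (0.394%). Its share was 0.0683% of common and 0.0741% of GFP-negative-only intergenic regions, 0.350% of GFP-positive-only intronic regions and 0.111% of all regions. Of these 28 windows, 22 had a copy number of 1 and 1 lay on the leucine-primed element. The homeobox word TAATCC of OTX and OBOX factors was in 737 members (10.4%), 13.6% of GFP-positive-only intronic, 5.54% of GFP-negative-only and 4.30% of common regions, and 6.14% of all regions. A window like F1 was found in 710 members (9.98%, 9.31 to 10.7), and 66.3% of these held the word. Likeness here was any significant blastn match to the F1 seed, without a minimum identity or length. This is looser than the family rule, by which F1 had 282 members. Such windows were also 3.39% of common, 3.96% of GFP-negative-only and 15.7% of GFP-positive-only intronic regions. Without such windows its share was 4.15% in members, 2.62% in common, 4.52% in GFP-negative-only and 4.70% in GFP-positive-only intronic regions, a split made after the data were seen. The NFY word CCAAT, a promoter element, was in 36.8% of members, 33.0% of common, 24.9% of GFP-negative-only, 27.1% of GFP-positive-only intronic and 26.7% of all regions. It was in 53.1% of members on the leucine-primed element, 34.5% of the others and 27.2% of members with a copy number of 1. The core TATA word TATAAA was in 8.72% of members and 8.51% of GFP-positive-only intronic regions, against 6.07% of GFP-negative-only, 2.97% of common and 4.95% of all regions.

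The words of factors of the pluripotent state were less frequent in members than in GFP-negative-only regions, and common regions lay lower still for the first and second of them. TCAAGGTCA, for NR5A2 and ESRRB, was in 0.661% of members, 1.35% of GFP-negative-only and 0.433% of common regions. ATGCAAAT, for the octamer factors, was in 2.15%, 3.14% and 1.51%, and GGGTGTGG, for KLF factors, in 3.4%, 6.68% and 4.30%. In GFP-positive-only intronic regions these words, in the same order, were in 0.777%, 1.19% and 3.09%. The order differed in part among windows with a copy number of 1. There ATGCAAAT was in 0.859% of members, 2.7% of GFP-negative-only and 2.1% of common regions, so members were lowest of the intergenic classes. GFP-positive-only intronic regions were lower still, at 0.743%. For TCAAGGTCA the shares in members, GFP-negative-only, common and GFP-positive-only intronic regions were 0.887%, 1.42%, 0.81% and 0.913%. For GGGTGTGG they were 3.49%, 6.67%, 6.72% and 3.21%. The ZSCAN4 word TGCACAC was in 3.71% of members and 3.96% of all regions. Its share was 4.5% in GFP-negative-only, 1.89% in common and 5.39% in GFP-positive-only intronic regions. It was in 5.95% of members with a copy number of 1 and 0.115% of those on the leucine-primed element. A CG dinucleotide was in 88.6% of member windows and 96.0% of common ones, with a mean of 4.26 and 7.77 per window. The median GC content was 50% and 59%.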

How the data were processed

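DPPA4 CUT&RUN was analysed from 2 deposited peak lists, each pooled by the authors over the 2 DPPA4 libraries of GFP-negative or GFP-positive cells; the 2 IgG libraries enter nothing, and whether they served as control in peak calling was not stated. Per the methods and the submitters' processing notes, the authors trimmed adapters with bbduk, aligned with STAR 2.7.10 to mm10 keeping multimapping reads at a single best or random place, removed duplicates with Picard 2.26.0, dropped ENCODE blacklist regions with SAMtools 1.14 and bedtools 2.30.0 among the tools named, and called peaks with MACS2 2.2.6. The deposited fold enrichment is a ratio over the MACS2 background, the deposited −log10 q is the adjusted significance of the summit, and the deposited summit offset is in bp. The methods state an equal sequencing depth per sample, but the reads kept behind each list after filtering are unknown, and more reads give more peaks from the same occupancy. Per-sample columns not used numbered 0.

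Regions were built and described with Python 3.11.15, numpy 2.4.6, pandas 2.3.3 and blastn 2.17.0 on the RefSeq GRCm38.p6 sequence (equal to mm10) and GENCODE vM21. Shares carry Wilson 95% intervals (scipy 1.17.1). Genome counts of 31-mers were tested on simulated sequence. Families came from all-against-all blastn (80% identity over 100 bp), joined greedily by number of partners. Full-length copies of an LTR element had both LTRs at 80% of their length or more and 90% of the internal part. Named were the 10 members with the highest −log10 q, the 5 largest families, the 5 windows of 1 Mb with most members, the 15 genes nearest to most members and the listed genes with a member within 50 kb. Other families, the LTR elements and genes without a member were named after their values were seen. Members and lists were chosen with earlier results of these data known. The seed sequence of F1 is not reported here.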

Additional observations from a re-analysis of the deposited data

Results flagged for a closer look

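Chromosomes X and Y lie outside the rule that chose the members, and the same rule applied to them gave regions too. On chromosome X, 227 of 973 intergenic regions (23.3%) were GFP-positive-only, and on chromosome Y 67 of 207 (32.4%). These were singled out because they lie in data the comparisons above do not use. On chromosomes 1 to 19 the share was 23.1%, so that of chromosome X was close to it and that of chromosome Y, which rests on 207 regions, higher. Whether control libraries entered the peak calling was not stated, and the difference was not tested.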

How the results depend on the processing

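No paired analysis was possible because both libraries of a group share 1 pooled list, so neither a replicate block nor leaving out a replicate could be run. Placing regions by summit in place of midpoint moved none of the 9 results it was run on past its interval or 1.5 times. A gap of 1 kb to any GFP-negative peak left 6429 members and moved the intergenic share to 20.9%, the median start distance to 13502 bp, the share within 50 kb to 62.6%, soft-masked bases to 67.5%, multi-copy summits to 39.6%, family membership to 42.9% and the leucine-primed element to 13.4%. Requiring a −log10 q of 5 in the region's own list left 994 members (1765 with both lists limited), an intergenic share of 9.15%, 14442 bp, 28.3% within 50 kb, 82.5% soft-masked, 57.9% multi-copy, 51.0% in families, 32.5% on the element, a fold enrichment of 5.63 and a width of 1152 bp. Multi-copy summits were 50.7% at 2 copies, 25.2% at 100 copies and 33.6% over whole regions, families 34.2% at 90% identity, and neighbours 46.3% within 10 kb. Without members on the element (added, like its other alternatives, after seeing the data) the values were 51.9% soft-masked, 28.5% multi-copy, 59.3% within 50 kb, 3.61 and 545 bp. The cause of these shifts was not tested. Presence in a list depends on how many reads were kept, which is unknown, and most members lay close to the threshold.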
